A study of Mus musculus with 12 samples.

Results

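Expression of 10 genes of the endoplasmic reticulum (ER) was followed in a mouse macrophage line after exposure to hypochlorous acid (HOCl): 9 genes for chaperones, folding enzymes and related ER proteins, and Xbp1, which encodes a transcription factor of the same stress response. The genes were Hspa5, Hsp90b1, Pdia4, Pdia6, Calr, Xbp1, Sdf2l1, Herpud1, Dnajb9 and Creld2, chosen by symbol among the 28977 gene IDs of the deposited table. Each symbol matched 1 ID, and all 10 passed the filter on low values (at least 1 FPKM in at least 3 libraries), which kept 12026 genes. FPKM is a count of fragments scaled to exon length and to the reads of the library, so that levels can be set side by side between genes. The cells were J774A.1, a mouse line of macrophage-like tumour cells. HOCl is the oxidant that myeloperoxidase of phagocytes makes from hydrogen peroxide and chloride. There were 4 groups of 3 libraries. One was kept in cell media throughout, and the other 3 were held for 1 h in HBSS, a balanced salt solution, with HOCl at 0 µM (the vehicle, here called HBSS), 20 µM or 100 µM. All cells then had full medium for 24 h before RNA was taken. HBSS served as the vehicle because components of culture medium react with HOCl. The series names lethal and sublethal doses without saying which dose is which. All libraries come from 1 cell line, and nothing in the labels says that replicates were separate cultures, so a p-value here reflects only how far these samples scatter, which may be technical.

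The ER is where secreted and membrane proteins are folded, and macrophages, which secrete cytokines and enzymes and renew surface receptors, rely on it. When unfolded proteins build up in its lumen, the sensors encoded by Ern1, Eif2ak3 and Atf6 start the unfolded protein response. Ern1 removes a short intron from Xbp1 mRNA so that it codes for the active factor, Atf6 is itself released as a factor, and Eif2ak3 slows translation and favours that of Atf4, which acts on Ddit3. Xbp1 and Atf6 raise genes for chaperones and for the removal of misfolded proteins. The values here are per gene, so they do not separate spliced from unspliced Xbp1 mRNA, and splicing was not analysed here.

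The values rested on 17683937 to 21408518 reads per library, as recovered from the steps between low FPKM values. Cell media replicates 1 and 2 stood apart. Their correlation was 0.988, and with any other library it was 0.946 to 0.971, while the lowest correlation among the other 10 libraries was 0.974, and cytosolic ribosomal protein genes took 12.2% and 11.96% of their FPKM against 7.01% to 7.85% elsewhere. Each test is therefore given on all 12 libraries and on the 10 without these replicates. Limma's moderated test was used on log2(FPKM + 1), two-sided, with Benjamini-Hochberg adjustment over all 12026 genes at a threshold of 0.05. A fit with weights for each library called more genes, and its counts are in the closing section. The macrophage label matched its markers, of which all 10 averaged from 6.996 to 2351 FPKM, and of the markers of neutrophils, T cells, B or plasma cells, fibroblasts, epithelium and endothelium only the neutrophil gene S100a8 averaged above 1 FPKM.

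Several genes of this response carry known ER stress elements in their promoters, and the windows of the 6 genes studied in which a script found such an element are shown here, 4 of them whole. The ER stress response element, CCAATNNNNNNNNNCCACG, is bound by Atf6 together with the general factor NF-Y. It was searched on both strands in RefSeq promoter windows of GRCm38.p6, from 250 bases before to 50 bases after each gene's start. It occurred in 39 of 32851 windows (0.119%) and in 5 of the 10 genes studied. The shorter ERSE-II, ATTGGNCCACG, occurred in 12 windows (0.0365%), among them that of Herpud1, and the core of the XBP1-type element, TGACGTGG, in 222 windows (0.676%) and in none of the 10. Capitals mark the matches, and a match on the strand opposite the gene reads as its reverse complement. The whole windows of 4 genes follow, from chr2:34771840-34772139 (plus strand, Hspa5), chr10:86705395-86705694 (minus strand, Hsp90b1), chr15:88819396-88819695 (plus strand, Creld2) and chr8:94386179-94386478 (plus strand, Herpud1).
Hspa5: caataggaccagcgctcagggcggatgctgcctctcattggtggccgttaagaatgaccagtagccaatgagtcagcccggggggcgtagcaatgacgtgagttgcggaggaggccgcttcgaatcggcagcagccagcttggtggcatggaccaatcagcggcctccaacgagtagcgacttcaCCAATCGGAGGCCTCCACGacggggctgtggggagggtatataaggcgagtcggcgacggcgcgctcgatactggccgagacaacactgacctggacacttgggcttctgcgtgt
Hsp90b1: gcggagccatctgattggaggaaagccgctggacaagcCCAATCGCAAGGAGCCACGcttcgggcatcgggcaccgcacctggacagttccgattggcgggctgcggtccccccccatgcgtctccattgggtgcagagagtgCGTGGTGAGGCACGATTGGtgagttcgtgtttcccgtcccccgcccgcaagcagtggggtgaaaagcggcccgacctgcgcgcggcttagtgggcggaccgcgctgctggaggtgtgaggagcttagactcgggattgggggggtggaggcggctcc
Creld2: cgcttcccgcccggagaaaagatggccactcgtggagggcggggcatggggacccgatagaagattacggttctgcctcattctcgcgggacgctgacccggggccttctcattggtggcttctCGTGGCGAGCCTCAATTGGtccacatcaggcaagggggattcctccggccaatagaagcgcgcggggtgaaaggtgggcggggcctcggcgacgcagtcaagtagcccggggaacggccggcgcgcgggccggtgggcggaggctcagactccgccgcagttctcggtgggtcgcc
Herpud1: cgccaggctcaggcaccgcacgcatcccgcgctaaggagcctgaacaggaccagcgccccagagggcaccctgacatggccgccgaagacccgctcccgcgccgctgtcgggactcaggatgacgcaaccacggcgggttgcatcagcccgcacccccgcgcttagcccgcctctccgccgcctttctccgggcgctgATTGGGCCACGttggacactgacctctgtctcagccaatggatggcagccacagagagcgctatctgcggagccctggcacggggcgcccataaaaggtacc
Pdia6 (chr12:17266339-17266638, plus strand) and Calr (chr8:84846882-84847181, minus strand) held 1 match each, shown alone in the direction of the motif.
Pdia6: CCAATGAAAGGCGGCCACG
Calr: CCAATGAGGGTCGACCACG
Counted from the start, the Hspa5 match ran from −65 to −47 and that of Pdia6 from −98 to −80. Hsp90b1 held 2, from −212 to −194 and, on its opposite strand, from −107 to −89. The matches of Calr, from −162 to −144, and of Creld2, from −126 to −108, were also on the opposite strand of the gene. The ERSE-II of Herpud1 ran from −52 to −42. In these windows no match overlapped another. None of the 3 motifs was found as an exact match in the windows of Pdia4, Xbp1, Sdf2l1 and Dnajb9. Near matches were not sought in any window, so elements that depart from these letters would be missed. A match describes the letters only and is not a measured binding site.

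Levels differed widely among the 10 genes. Calr, the calcium-binding lectin chaperone calreticulin, was the highest, at a mean of 410 FPKM over the 12 libraries, above 99.2% of the kept genes. Hsp90b1, the HSP90 of the ER lumen, averaged 242 FPKM, and Hspa5, the HSP70 of the ER lumen also known as BiP, averaged 228 FPKM. The disulfide isomerases Pdia4 and Pdia6 averaged 137 and 134 FPKM. Sdf2l1, which works with Hspa5 and its J-domain partners, averaged 63.0 FPKM, Creld2, a small ER protein with disulfide isomerase activity, 43.6 FPKM and Xbp1 42.9 FPKM. Herpud1, a membrane protein that organises ER-associated degradation (ERAD), averaged 19.0 FPKM, and Dnajb9, a J-domain protein that partners Hspa5, was the lowest at 7.58 FPKM, above 51.2% of the kept genes. Even the smallest value, for Dnajb9, rested on 281 reads or more in each library, and the largest, for Calr, on up to 29743.

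**Figure D1:**
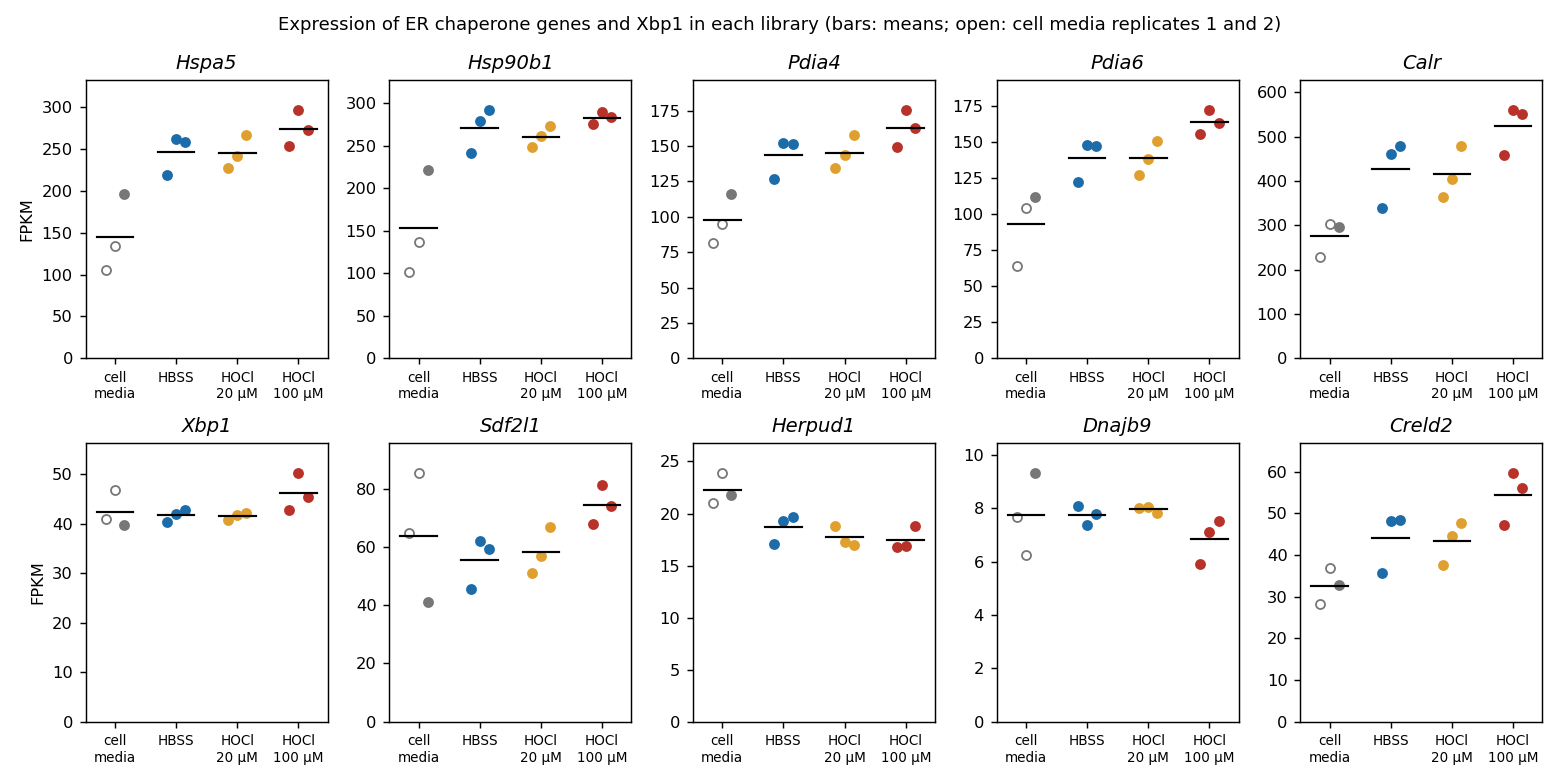
FPKM (y axis, linear and starting at 0) of each of the 10 genes in the 12 libraries, by group in order of dose (x axis). Points are libraries, bars are means of 3, and open circles are cell media replicates 1 and 2. Pdia6 and Sdf2l1 were higher in all 3 libraries at 100 µM than in any HBSS library, and HBSS and 20 µM overlapped for every gene.

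At 100 µM HOCl, 8 of the 10 genes averaged above HBSS, from 1.04-fold (Hsp90b1) to 1.34-fold (Sdf2l1) by the ratio of means, and Herpud1 and Dnajb9 averaged below it. Without the replicate number or library weights in the model, no gene of the 10 passed the limma threshold. The limma adjusted p was 0.648 to 0.905 on 12 libraries and 0.0879 to 0.526 on 10. Limma called 0% of the 12026 genes in this comparison on 12 libraries and 0.241% of them, 29 genes, on 10. At an unadjusted p under 0.05 the count was 0 of the 10 genes on 12 libraries and 3 on 10 libraries, beside 933 and 3878 of all genes. Limma-voom on the recovered reads also called 0 of the 10. With the replicate number added as a block on 10 libraries, limma called 5 of the 10, all with 100 µM higher. These were Pdia4, Pdia6, Calr, Sdf2l1 and Creld2 (limma adjusted p = 0.0152 to 0.0441), beside 2979 of all 12026 genes. In 2 of the 10 genes, Pdia6 and Sdf2l1, the groups did not overlap, both with 100 µM higher, beside 34.1% of all kept genes in either direction, so that count is below the background. The 10 genes had a median log2 difference of 0.17, beside −0.0063 over all kept genes.

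Hspa5, which binds unfolded chains and holds the stress sensors inactive, stood at 253, 297 and 272 FPKM at 100 µM, against 219, 262 and 258 FPKM in HBSS. The lowest library at 100 µM lay below the higher pair of HBSS libraries. Its log2 difference was 0.16 (SE 0.19 on 12 libraries and 0.090 on 10), with a 95% interval of −0.049 to 0.36 on 10 libraries. Hsp90b1, the chaperone of Toll-like receptors and integrins, had 275, 289 and 284 FPKM at 100 µM and 241, 279 and 293 FPKM in HBSS. The highest value of the 6 was an HBSS library, and the log2 difference was 0.066 (SE 0.22 on 12 libraries, 0.071 on 10). It turned to −0.053 with quantile normalization and to −0.014 without HBSS replicate 1. With median-of-ratios scaling it was 0.098, and the highest value with any 1 library left out was 0.12.

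The co-chaperones of Hspa5 averaged on opposite sides of HBSS. Sdf2l1 had 68.0, 81.1 and 74.2 FPKM at 100 µM, against 45.6, 61.9 and 59.4 FPKM in HBSS, and every library at 100 µM lay above every HBSS library. Its log2 difference of 0.42 was the largest of the 10 (SE 0.22 on 12 libraries, SE 0.13 on 10 with an interval of 0.12 to 0.72 and limma adjusted p = 0.0879), and it was 0.32 once each library's trend on exon length was removed. Dnajb9, whose protein in mammals helps Hspa5 to hold Ern1 inactive, had 5.92, 7.12 and 7.54 FPKM at 100 µM and 8.10, 7.38 and 7.79 FPKM in HBSS. The groups overlapped through 1 library on each side, and the log2 difference was −0.16 (SE 0.12 on 12 libraries, 0.075 on 10).

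Among the enzymes that form and rearrange disulfide bonds, Pdia6 had 155, 173 and 164 FPKM at 100 µM, against 122, 148 and 147 FPKM in HBSS. All 3 libraries at 100 µM were above all 3 of HBSS, with a log2 difference of 0.24 (SE 0.18 on 12 libraries, SE 0.088 on 10 with an interval of 0.040 to 0.44 and limma adjusted p = 0.112). Pdia4 had 149, 176 and 163 FPKM at 100 µM and 127, 152 and 152 FPKM in HBSS, overlapping groups, and a log2 difference of 0.18 (SE 0.13 on 12 libraries, 0.092 on 10). Creld2 had 47.2, 59.7 and 56.0 FPKM at 100 µM and 35.6, 48.2 and 48.5 FPKM in HBSS. Its groups overlapped through 100 µM replicate 1, and its log2 difference was 0.30 (SE 0.15 on 12 libraries, 0.14 on 10). Calr, which retains newly made glycoproteins until they are folded, had 459, 561 and 551 FPKM at 100 µM and 339, 461 and 479 FPKM in HBSS. The overlap again came from 100 µM replicate 1, and the log2 difference was 0.31 (SE 0.17 on 12 libraries, 0.15 on 10).

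The transcription factor and the ERAD gene averaged on opposite sides of HBSS. Xbp1 had 42.7, 50.2 and 45.4 FPKM at 100 µM, against 40.4, 41.9 and 42.8 FPKM in HBSS, and the lowest library at 100 µM fell just inside the HBSS range. Its log2 difference was 0.14 (SE 0.084 on 12 libraries, SE 0.058 on 10 with an interval of 0.0085 to 0.27 and limma adjusted p = 0.138). Herpud1 had 16.8, 16.9 and 18.8 FPKM at 100 µM and 17.1, 19.3 and 19.7 FPKM in HBSS, overlapping groups with a log2 difference of −0.090 (SE 0.084 on 12 libraries, 0.068 on 10). Part of the size of these differences rested on HBSS replicate 1, the lowest HBSS library for 9 of the 10 genes. Without it the log2 difference was 0.073 for Hspa5, 0.092 for Pdia4, 0.15 for Pdia6, 0.15 for Calr, 0.16 for Creld2 and 0.29 for Sdf2l1. Replicate 1 was also the lowest library at 100 µM for each of these genes. With any 1 library left out, the highest values were 0.21 for Hspa5, 0.24 for Pdia4 and 0.29 for Pdia6. For Calr, Creld2 and Sdf2l1 they were 0.40, 0.40 and 0.50. Quantile normalization took the difference of Hspa5 to 0.018, of Pdia4 to 0.050 and of Xbp1 to 0.060. It took Pdia6 to 0.12, Calr to 0.16, Creld2 to 0.23 and Sdf2l1 to 0.36. Median-of-ratios scaling gave larger differences than the main fit, at 0.19 for Hspa5, 0.21 for Pdia4 and 0.17 for Xbp1. With it Pdia6 stood at 0.27, Calr at 0.34, Creld2 at 0.33 and Sdf2l1 at 0.45.

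Other features of the libraries went with this comparison, and their part in the result was not tested. The correlation of a library's deviations with log2 exon length was 0.0059, −0.081 and −0.11 at 100 µM, against 0.20, 0.19 and 0.32 in HBSS. The 10 macrophage markers summed to 4479 to 5080 FPKM at 100 µM, against 3937 to 4316 FPKM in HBSS, and the 5 neutrophil markers, carried by S100a8, to 14.0 to 16.5 FPKM against 9.99 to 12.9 FPKM. In bulk libraries, fewer cells of a type and less RNA per cell cannot be told apart.

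**Figure D2:**
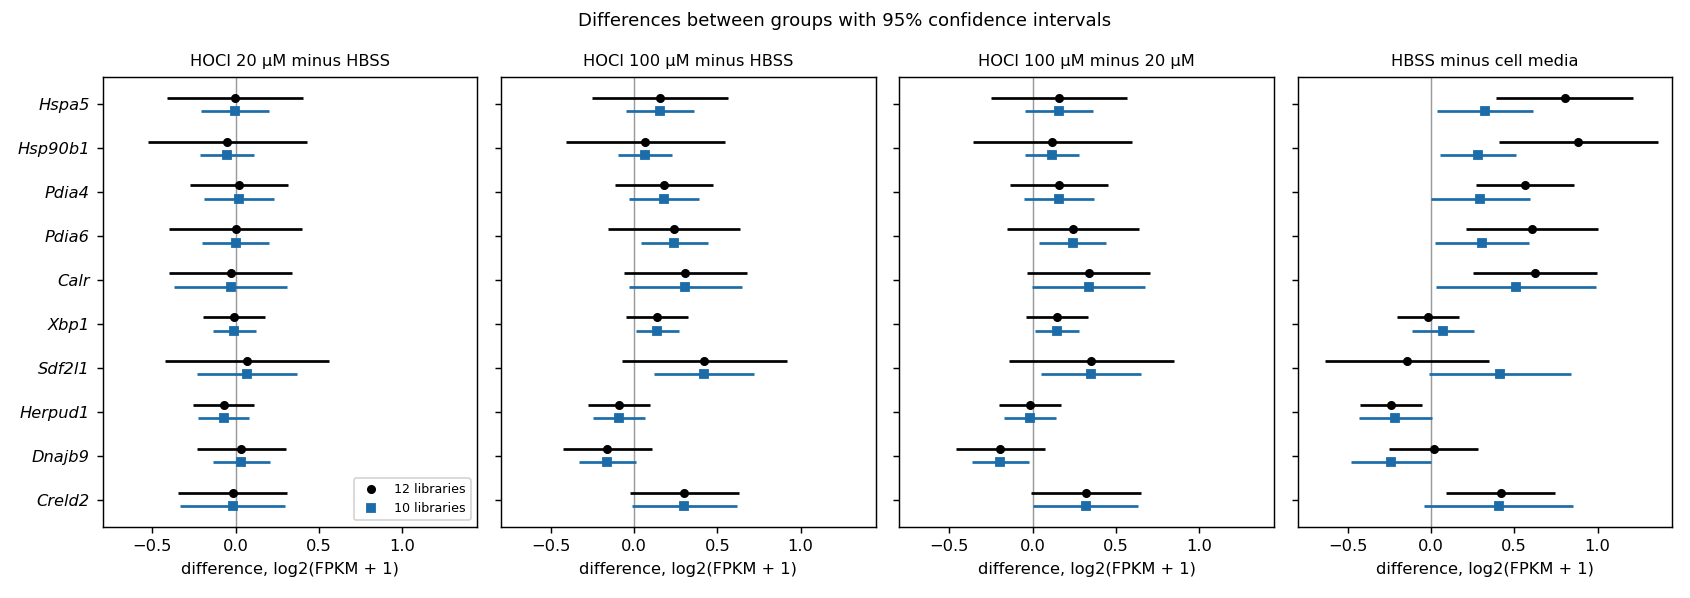
Log2 difference between groups on the log2(FPKM + 1) scale (x axis) for each of the 10 genes (y axis), in 4 comparisons. Points are differences of group means and lines are 95% confidence intervals from limma, on all 12 libraries (black circles) and on the 10 without cell media replicates 1 and 2 (blue squares). At 20 µM against HBSS all 10 differences lay within 0.073 of 0, and for Hsp90b1 in HBSS against cell media the difference was 0.89 on 12 libraries and 0.28 on 10.

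Between the doses, the same 8 genes averaged higher at 100 µM than at 20 µM, with a median log2 difference of 0.16 over the 10 genes beside −0.017 over all kept genes. These values share the 100 µM libraries with the comparison above. No gene of the 10 was called (limma, 0 of 10 on 12 and on 10 libraries, where 0% of all genes were called in both; unadjusted p under 0.05 in 0 and in 5 of the 10, beside 481 and 3156 of all genes). With the replicate block on 10 libraries, limma called 4 of the 10, all with 100 µM higher, beside 2088 of all genes. In 5 of the 10 genes the doses did not overlap, beside 28.3% of all kept genes. These were Hsp90b1, Pdia6, Xbp1 and Sdf2l1 with 100 µM higher and Dnajb9 with 100 µM lower. Hsp90b1 had 275, 289 and 284 FPKM at 100 µM, against 248, 261 and 273 FPKM at 20 µM. Pdia6 had 155, 173 and 164 FPKM at 100 µM, against 127, 139 and 151 FPKM at 20 µM, for a log2 difference of 0.24 (SE 0.18 on 12 libraries, 0.088 on 10). Xbp1 had 42.7, 50.2 and 45.4 FPKM at 100 µM, against 40.6, 41.7 and 42.0 FPKM at 20 µM, for a log2 difference of 0.15 (SE 0.084 on 12 libraries, 0.058 on 10). Its groups were close, with 42.7 FPKM in the lowest library at 100 µM and 42.0 FPKM in the highest at 20 µM. Sdf2l1 had 68.0, 81.1 and 74.2 FPKM at 100 µM, against 51.0, 56.9 and 66.8 FPKM at 20 µM. Its log2 difference was 0.35 (SE 0.22 on 12 libraries, SE 0.13 on 10, limma adjusted p = 0.151 on 10). Dnajb9 had 5.92, 7.12 and 7.54 FPKM at 100 µM, each below the 8.01, 8.05 and 7.83 FPKM at 20 µM, for a log2 difference of −0.19 (SE 0.12 on 12 libraries, 0.075 on 10). Calr averaged 524 ± 56 FPKM at 100 µM and 415 ± 58 FPKM at 20 µM, and Creld2 54.3 ± 6.4 and 43.3 ± 5.1 FPKM (SD, n = 3 each), with log2 differences of 0.34 and 0.32 and overlapping groups. The difference of Hsp90b1, 0.12, turned to −0.0044 with quantile normalization.

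At 20 µM against HBSS the 10 genes stood at nearly the same levels. Their log2 differences ran from −0.073 for Herpud1 to 0.069 for Sdf2l1, with 3 above and 7 below 0 and a median of −0.0061, beside 0.0057 over all kept genes. The groups overlapped in all 10, while 7.69% of kept genes did not overlap, and limma called 0 of the 10 and 0% of all genes on 12 and on 10 libraries (0 of the 10 at an unadjusted p under 0.05 in both, beside 130 and 371 of all genes). Hspa5 had 227, 242 and 266 FPKM at 20 µM, against 219, 262 and 258 FPKM in HBSS. The 95% interval of its difference, on 10 libraries, was −0.21 to 0.20 on the log2 scale, and differences inside that range could not be told from 0 with these libraries. Calr had 364, 404 and 478 FPKM at 20 µM and 339, 461 and 479 FPKM in HBSS, an interval of −0.37 to 0.31. Xbp1 was the most even, at 41.5 ± 0.7 FPKM at 20 µM and 41.7 ± 1.2 FPKM in HBSS (SD, n = 3 each), with an interval of −0.14 to 0.12. For several genes the sign of these small differences changed with the scaling or with 1 library left out, as given for each in the closing section.

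HBSS against cell media compares a 1 h stay in salt solution with uninterrupted medium, both followed by 24 h in medium. It held the largest differences of the 10 genes. Hsp90b1 stood at 241, 279 and 293 FPKM in HBSS, against 102, 137 and 222 FPKM in cell media. Hspa5 stood at 219, 262 and 258 FPKM in HBSS, against 105, 134 and 196 FPKM in cell media. All 3 HBSS libraries were above all 3 of cell media for both, and the third cell media library, which did not stand apart, lay closest to HBSS. Their log2 differences were 0.89 (SE 0.22) and 0.80 (SE 0.19), with limma adjusted p = 0.0711 for each on 12 libraries. On 10 libraries the differences were 0.28 and 0.32, with limma adjusted p = 0.644 for each. Pdia4 had 127, 152 and 152 FPKM in HBSS and 81.7, 94.6 and 116 FPKM in cell media. Pdia6 had 122, 148 and 147 FPKM in HBSS and 63.9, 104 and 112 FPKM in cell media. Calr had 339, 461 and 479 FPKM in HBSS and 228, 302 and 296 FPKM in cell media. In these 3 genes too the groups did not overlap, with log2 differences of 0.56, 0.61 and 0.62. Creld2 had 35.6, 48.2 and 48.5 FPKM in HBSS and 28.4, 36.8 and 32.7 FPKM in cell media, a log2 difference of 0.42 (SE 0.15) with 1 HBSS library inside the cell media range.

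Herpud1 went the other way, with 17.1, 19.3 and 19.7 FPKM in HBSS, all below the 21.0, 23.9 and 21.8 FPKM of cell media (log2 difference −0.24, SE 0.084, limma adjusted p = 0.0795 on 12 libraries and 0.644 on 10). Xbp1 had 40.4, 41.9 and 42.8 FPKM in HBSS and 40.8, 46.8 and 39.6 FPKM in cell media, an order that depended on the library. Sdf2l1 had 45.6, 61.9 and 59.4 FPKM in HBSS and 64.8, 85.4 and 41.2 FPKM in cell media. Its cell media libraries were both the highest and the lowest of the 6, and its log2 difference of −0.14 on 12 libraries became 0.41 on 10. Dnajb9 had 8.10, 7.38 and 7.79 FPKM in HBSS and 7.65, 6.23 and 9.32 FPKM in cell media, with a log2 difference of 0.017 on 12 libraries and −0.24 on 10.

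Limma called 0 of the 10 genes in HBSS against cell media, on 12 and on 10 libraries, and 0.0166% and 0% of all genes. The unadjusted p was under 0.05 for 7 and 4 of the 10, beside 4806 and 823 of all genes. With the replicate block on 12 libraries, limma called 4 of the 10, beside 193 of all genes. The groups did not overlap in 6 of the 10, beside 21.6% of all kept genes. Over 12 libraries the 10 genes had a median log2 difference of 0.49, beside 0.10 over all kept genes, a shift that median-of-ratios scaling moved to −0.013. On 10 libraries, with cell media replicate 3 alone assumed to vary like the other groups, the median was 0.30 beside −0.014. There the differences of Hspa5, Hsp90b1, Pdia4 and Pdia6 lay between 0.28 and 0.32 and that of Calr was 0.51. Without cell media replicate 3, which leaves the pair of libraries that stood apart, 8 of the 10 and 7852 of all genes were called. How far the distinct make-up of these libraries entered the result was not tested beyond these fits. The labels do not say which sequencing instrument each library ran on, so a batch of that kind could not be examined.

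**Figure D3:**
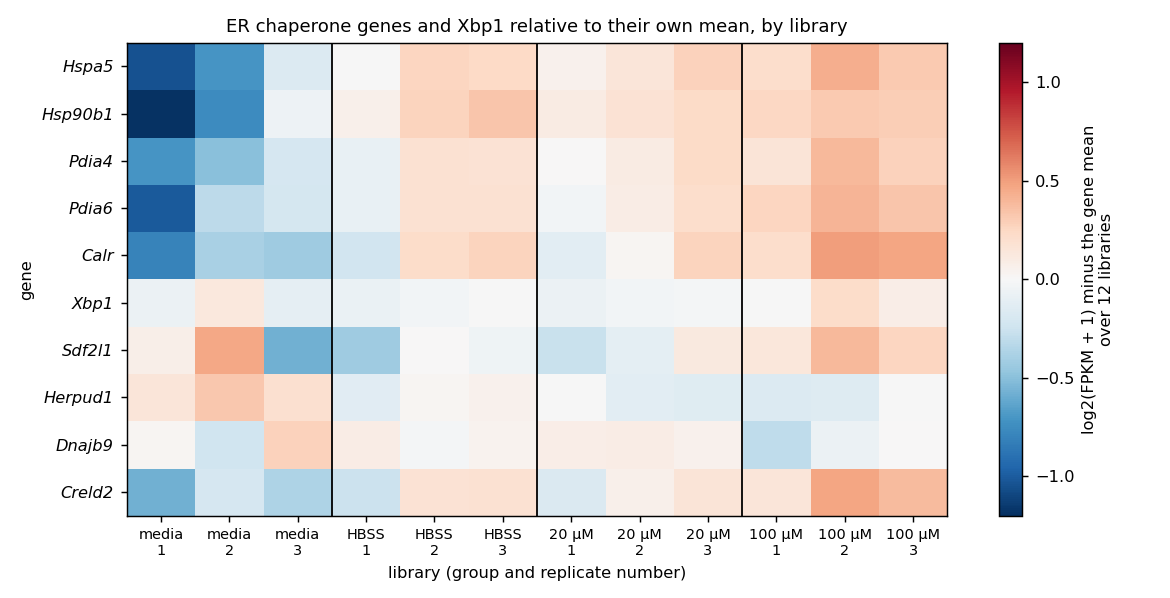
Log2(FPKM + 1) of each of the 10 genes (rows) in each library (columns, by group and replicate number) minus that gene's mean over the 12 libraries, on a colour scale from −1.2 to 1.2. Cell media replicate 1 is the lowest library for Hspa5, Hsp90b1, Pdia4, Pdia6, Calr and Creld2, replicate 1 is the lowest of its 3 in HBSS and at both doses for 8 of the 10 genes. The exceptions are Herpud1, where it is the lowest in cell media, HBSS and at 100 µM, and Dnajb9, where it is the lowest at 100 µM alone.

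The order of the group means was the same for Hspa5, Hsp90b1, Pdia6, Calr and Creld2: cell media lowest, then 20 µM, HBSS and 100 µM. For Pdia4, HBSS came before 20 µM. For all of these the neighbours HBSS and 20 µM did not differ beyond their spread. Sdf2l1 was lowest in HBSS and highest at 100 µM, with cell media spread across the other groups. Herpud1 ran the other way, lowest at 100 µM and highest in cell media, and its HBSS, 20 µM and 100 µM libraries overlapped. The 10 genes together took 0.191% to 0.351% of all FPKM in cell media, 0.383% to 0.483% in HBSS, 0.410% to 0.471% at 20 µM and 0.463% to 0.516% at 100 µM, so the ranges of the last 3 overlapped.

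The chaperone genes varied together from library to library. Over the 10 libraries without cell media replicates 1 and 2, Pdia4 followed Hspa5 with Pearson's r = 0.997 and Spearman's rho = 1 on log2(FPKM + 1), with a permutation p = 2e-05 for each, the smallest that 100000 resamples can give (adjusted p = 6e-05 and 0.00012 over the 9 relations computed). Calr (r = 0.981, rho = 0.964), Pdia6 (r = 0.977, rho = 0.927), Creld2 (r = 0.977, rho = 0.952), Sdf2l1 (r = 0.969, rho = 0.927) and Hsp90b1 (r = 0.945, rho = 0.830) followed it as well, with a permutation p of at most 0.00016 for r and 0.0047 for rho, and adjusted p of at most 0.00021 and 0.0060. Xbp1 was looser, with r = 0.838 and rho = 0.903 (permutation p = 8e-05 and 0.00064, adjusted p = 0.00012 and 0.00096). Without the 2 libraries farthest from the median of Hspa5, cell media replicate 3 and HBSS replicate 1, r ran from 0.827 for Hsp90b1 to 0.995 for Pdia4 among these 7. With group means taken out of the 9 HBSS and HOCl libraries, r was 0.779 for Xbp1 and from 0.889 to 0.998 for the other 6, so the shared variation was also present among replicates of a group. Herpud1 (r = −0.509, rho = −0.370, permutation p = 0.152 and 0.295, adjusted p = 0.152 and 0.295) and Dnajb9 (r = −0.633, rho = −0.745, permutation p = 0.0413 and 0.0189, adjusted p = 0.0464 and 0.0212) did not follow it. For Dnajb9 the relation rested on 2 libraries, since r was −0.259 without them, and it was 0.087 within groups. Replicate 1 was the lowest of its 3 libraries in HBSS, at 20 µM and at 100 µM for 8 of the 10 genes, all but Herpud1 and Dnajb9. The part of replicate number in these correlations was not tested. The permutations shuffled the 10 libraries freely, without regard to group or replicate number, so the permutation p-values can be too small.

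The genes outside the 10 whose pattern over these 10 libraries was most like that of Hspa5, among 7306 with a mean of at least 5 FPKM, were Rbmxl1 (r = 0.996), Hspa8 (r = 0.995), Dnaja1 (r = 0.993), Cct3 (r = 0.992) and Gm15459 (r = 0.991), given as a description with no test. Hspa8 is the constitutive HSP70 of the cytosol, Dnaja1 a J-domain partner of cytosolic HSP70 and Cct3 a subunit of the cytosolic chaperonin. Rbmxl1 and Gm15459 may share reads with near-identical copies, and their values and those of such copies are uncertain. Gm15459 had 342, 485 and 436 FPKM at 100 µM and 231, 363 and 361 FPKM in HBSS, in the same order of libraries as Hspa8. Whether Gm15459 and Hspa8 share reads was not tested, so they may not be separate signals. Hspa8 stood at 221, 324 and 283 FPKM at 100 µM, against 150, 244 and 236 FPKM in HBSS, with replicate 1 the lowest in both groups as for Hspa5. Ranked by likeness to Hspa5 with these genes, Pdia4 was first of 7315, Calr 23rd, Pdia6 39th, Creld2 40th, Sdf2l1 79th, Hsp90b1 at place 253 and Xbp1 at place 1098, while Herpud1 and Dnajb9 stood at places 5104 and 5457.

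Of the 19 genes listed as sensors and factors of the unfolded protein response, 13 averaged lower at 100 µM than in HBSS and 6 averaged higher. Their median difference was −0.14 on the log2 scale, beside −0.0063 over all kept genes, with 0 called on 12 or on 10 libraries. With the replicate block on 10 libraries, limma called 9 of the 19, 7 of them lower and 2 higher, beside 2979 of all 12026 genes. The groups did not overlap in 10 of the 19 (52.6%, beside 34.1% of all kept genes), 6 with 100 µM lower and 4 with 100 µM higher. The 4, named after their values were seen, were Creb3, an ER-bound factor, at 13.2 FPKM against 10.7 FPKM on average (log2 difference 0.28), Nfyc, a subunit of NF-Y (0.14), Rtcb, the ligase that joins spliced Xbp1 mRNA (0.12), and Atf6b, a relative of Atf6 (0.059). Ddit3, the stress factor CHOP, had 16.1, 14.2 and 15.7 FPKM at 100 µM, against 26.5, 24.0 and 22.6 FPKM in HBSS. These groups did not overlap (log2 difference −0.64, SE 0.11, limma adjusted p = 0.374 on 12 libraries and 0.0514 on 10). In HBSS its level was below the 55.7, 47.3 and 49.0 FPKM of cell media. Without a replicate block or library weights, it was the 1 gene of these lists called on 12 or on 10 libraries in any comparison. It was called in HBSS against cell media, lower by 1.02 on the log2 scale (SE 0.11, limma adjusted p = 0.0284 on 12 libraries). That call was lost on 10 libraries, at −0.98 (limma adjusted p = 0.372). Ern1, the sensor that splices Xbp1, had 5.75, 3.71 and 3.68 FPKM at 100 µM and 8.93, 6.47 and 6.34 FPKM in HBSS (log2 difference −0.62, SE 0.20, limma adjusted p = 0.603 on 12 libraries and 0.0838 on 10), groups that did not overlap. Ppp1r15b, a subunit of the phosphatase that restores translation, had 31.2, 28.7 and 26.2 FPKM at 100 µM and 37.0, 34.4 and 37.4 FPKM in HBSS, also without overlap. Atf6 had 43.3, 32.8 and 36.0 FPKM at 100 µM and 49.4, 41.4 and 41.5 FPKM in HBSS, Atf4 averaged 209 ± 16 and 234 ± 28 FPKM and Eif2ak3 3.87 ± 0.24 and 4.17 ± 0.24 FPKM (SD, n = 3 each), all overlapping.

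**Figure D4:**
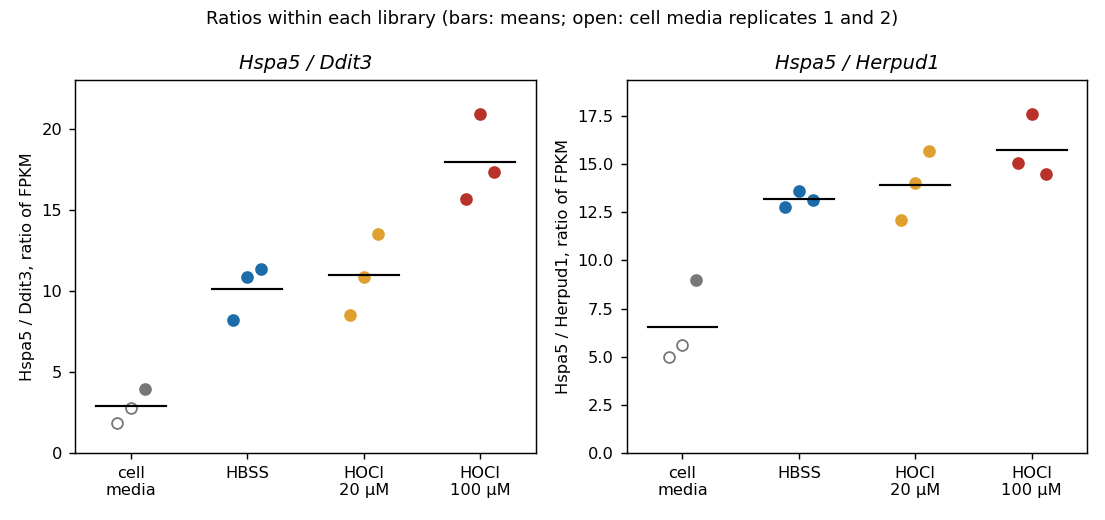
Ratio of Hspa5 to Ddit3 (left) and of Hspa5 to Herpud1 (right) in FPKM within each library (y axis, linear and starting at 0), by group in order of dose (x axis), with bars at the mean of 3 and open circles for cell media replicates 1 and 2. The Hspa5 to Ddit3 ratio was 15.7 to 21.0 at 100 µM, above every other library.

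A ratio within a library does not depend on its scaling. These ratios were chosen after the values were seen. Hspa5 was 1.89, 2.82 and 4.0 times Ddit3 in cell media, 8.24, 10.9 and 11.4 times in HBSS, 8.56, 10.9 and 13.6 times at 20 µM and 15.7, 21.0 and 17.4 times at 100 µM. The 3 libraries at 100 µM lay above all others. Hspa5 was 5.02, 5.59 and 8.98 times Herpud1 in cell media, 12.8, 13.6 and 13.1 times in HBSS, 12.1, 14.0 and 15.7 times at 20 µM and 15.1, 17.6 and 14.5 times at 100 µM. For this ratio 100 µM lay above HBSS and overlapped 20 µM. A ratio alone shows that its genes differed unequally and not which of them did. At 100 µM against HBSS the log2 difference was 0.16 for Hspa5, with overlapping groups, and −0.64 for Ddit3, without overlap.

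In the other lists of folding and quality control, limma called 0 genes at 100 µM against HBSS on 12 or on 10 libraries, as for the 10 genes studied, and single differences ran from −0.64 to 0.42 over all 6 lists. Over all 114 kept genes of the 6 lists, limma called 39 with the replicate block on 10 libraries, beside 2979 of all 12026 genes. Of the 114, 72 averaged higher at 100 µM and 42 averaged lower. The median was 0.043 on the log2 scale, and 44 (38.6%) had groups that did not overlap, beside 34.1% of all kept genes. The 2 genes named from each list had its smallest p in this same comparison, a pick that favours groups without overlap. Among other ER chaperones and folding enzymes, 22 of 30 were higher (median 0.076). The groups did not overlap in 13 of the 30 (43.3%, beside 34.1% of all kept genes). Dnajb11, a J-domain partner of Hspa5, had 47.0, 52.7 and 53.3 FPKM at 100 µM and 38.6, 43.4 and 45.2 FPKM in HBSS, and Erp44, which retains unassembled secretory proteins, averaged 24.9 ± 1.5 and 22.1 ± 0.5 FPKM (SD, n = 3 each), both without overlap. Of 22 kept ERAD genes, 13 were higher and 9 lower (median 0.018). In 4 of the 22 (18.2%) the groups did not overlap, below the 34.1% of all kept genes. Selenos, a selenoprotein of the ERAD complex, had 23.3, 28.4 and 27.5 FPKM at 100 µM and 19.9, 22.6 and 20.6 FPKM in HBSS, without overlap. Sel1l, the scaffold of the Hrd1 ubiquitin ligase, had 21.5, 17.1 and 17.6 FPKM at 100 µM and 27.9, 22.0 and 21.1 FPKM in HBSS, with overlap.

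Genes for entry into the ER and signal peptide removal were higher in 17 of 22 (median 0.12). The groups did not overlap in 8 of the 22 (36.4%), close to the 34.1% of all kept genes. Sec11a, a catalytic subunit of signal peptidase, had 12.1, 12.8 and 13.1 FPKM at 100 µM against 10.6, 10.6 and 11.0 FPKM in HBSS, and Srp68, of the signal recognition particle, averaged 47.4 ± 3.0 and 43.0 ± 2.3 FPKM (SD, n = 3 each) with overlap. For N-glycosylation, 11 of 16 were higher (median 0.065). Prkcsh, the non-catalytic subunit of glucosidase II, averaged 38.0 ± 1.9 FPKM at 100 µM and 33.7 ± 1.2 FPKM in HBSS, and Dpagt1, which starts the lipid-linked glycan, 16.3 ± 1.3 and 14.3 ± 0.7 FPKM (SD, n = 3 each). Of 5 kept receptors of ER-phagy, the autophagy of ER, 3 were higher and 2 lower (median 0.014), with Atl3 at 18.1 ± 1.7 and 20.6 ± 1.0 FPKM and Tex264 at 12.9 ± 1.3 and 11.7 ± 0.7 FPKM (SD, n = 3 each).

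**Figure D5:**
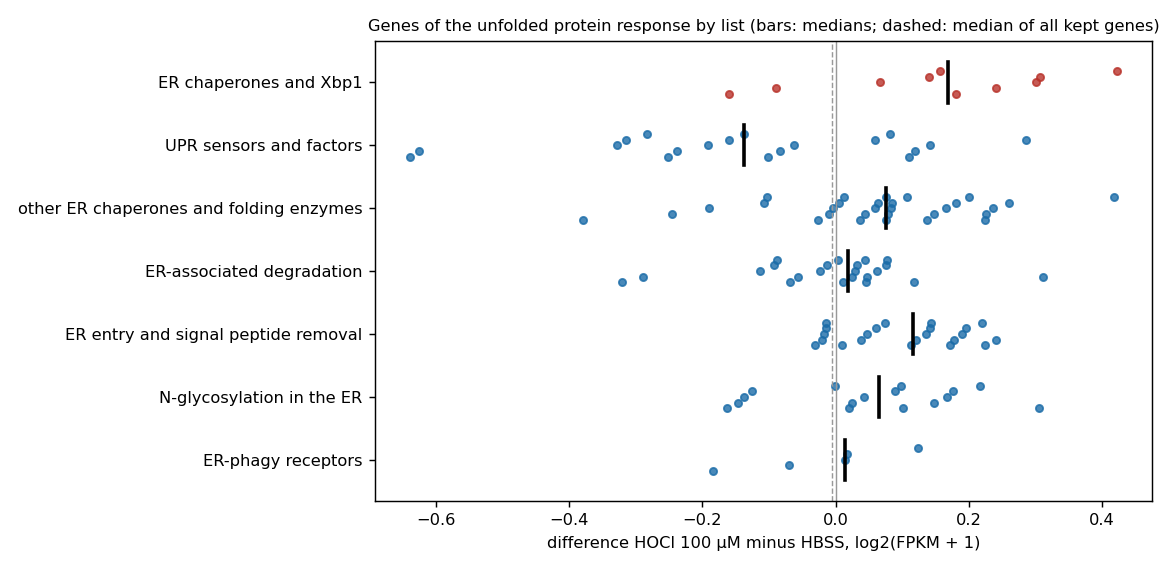
Log2 difference of 100 µM HOCl minus HBSS on the log2(FPKM + 1) scale (x axis) for the 10 genes studied and for the kept genes of 6 lists (y axis). Points are genes, bars are list medians and the dashed line is the median of all kept genes at −0.0063. The 10 genes have a median of 0.17, and the sensors and factors of the response, with Ddit3 at −0.64, a median of −0.14.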

How the data were processed

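Messenger RNA was measured in 12 J774A.1 libraries. The authors deposited FPKM values per gene ID. The submitters' processing notes name HISAT2, featureCounts and the GRCm39 build, while versions, settings and strand handling are not given in the sources used here. GENCODE M21, an annotation of another build, gave the gene names (28302 of 28977 IDs matched). Its exon lengths were used for the recovered reads, and so for limma-voom, and for the length correlations and length trends. The GC trend used GC content taken from the same annotation. Depth was recovered from the FPKM steps, and 98.26% of values below 1 came out as whole reads within 0.01.

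Genes with at least 1 FPKM in at least 3 libraries were kept and tested as log2(FPKM + 1), a scale that understates changes of low genes, with limma 3.58.1 in R 4.3.3 (a mean per group, shared spread, mean-variance trend). Differences were called at an adjusted p under 0.05 over 12026 genes in 4 comparisons. With 3 libraries a group, single values were not permuted. The fitting step was tested on simulated data for 100 µM against HBSS. Of known 1.25-fold changes it recovered 7.6% on 12 libraries and 9.2% on 10. Of 1.5-fold changes it recovered 51.2% and 45.6%. The simulation changed a small share of the genes and drew noise independently for each library. Recovery in the real libraries, where same-numbered replicates were alike in part, may differ. The genes studied, the lists and the tests were chosen with earlier results of these data known. Named besides the 10 genes were the 2 genes of each list with the smallest p in 100 µM against HBSS, the response factors Atf4, Atf6, Ern1, Eif2ak3 and Ddit3, and the 5 genes most like Hspa5. The alternatives tried were all genes above 0, only genes averaging 5 FPKM or more, pseudocounts of 0.1 and 0.5, scaling by quantiles or median of ratios, fewer libraries, the replicate number as a block, no trend, library weights and each library left out. Added after the data were seen were limma-voom on the recovered reads, loess trends (span 0.5) on exon length or GC content removed, and the length and quantile variants on 10 libraries. Sequences came from RefSeq promoter windows of GRCm38.p6, 1 for each of the 10 genes. Tables and plots used Python 3.11.15, pandas 2.3.3, scipy 1.17.1 and matplotlib 3.10.9.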

Additional observations from a re-analysis of the deposited data

How the results depend on the processing

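No call among the 10 genes appeared under another pseudocount, filter, scaling, trend setting or limma-voom in any of the 4 comparisons. Calls appeared with library weights, whose estimation did not reach its convergence tolerance, with the replicate number as a block, and without cell media replicate 3. Same-numbered libraries were alike in part. Correlations of their deviations from group means ran from −0.42 to 0.41 over all groups and from −0.062 to 0.41 among HBSS and HOCl. There the same number correlated best in 10 of 18 cases. For replicate 1 these values were 0.35, 0.26 and 0.38, against −0.062 to 0.075 for replicate 2 and −0.025 to 0.41 for replicate 3. The labels do not say that samples were paired, so the block rests on a shared number only. In all 3 same-numbered pairs, 7 of the 10 genes were higher at 100 µM than in HBSS. With the block on 10 libraries, limma called 5 of the 10 genes, 39 pathway genes and 2979 genes in 100 µM against HBSS, 4, 30 and 2088 in 100 µM against 20 µM, and 0 pathway genes and 0 genes in HBSS against cell media. With the block on 12 libraries it called 4, 5 and 193 in HBSS against cell media. With library weights it called 158 genes and 1 pathway gene in 20 µM against HBSS, 2, 34 and 3401 in 100 µM against HBSS, 8, 65 and 6084 in 100 µM against 20 µM, and 6, 76 and 7501 in HBSS against cell media.

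Over all genes the counts with no filter were 6, 1, 11 and 5 in the order 20 µM against HBSS, 100 µM against HBSS, 100 µM against 20 µM and HBSS against cell media. With only the 2 groups compared they were 2, 1 and 0 in the last 3 of these, where the pathway count of HBSS against cell media was also 0. In 100 µM against HBSS 29 genes were called on 10 libraries and on the 9 without cell media, and 1 on 10 libraries with the length trend removed. In HBSS against cell media, where 2 genes and 1 pathway gene were called, the count of genes was 1 with a pseudocount of 0.5, for genes averaging 5 FPKM or more and with the length trend removed, 4 with quantile normalization and with limma-voom, and 5 with no trend. It was 0 on 10 libraries, alone or with length or quantile correction. The pathway count was 0 there and with the length trend removed on 12 libraries. With each library left out in turn, genes called ranged from 0 to 0, 0 to 5, 0 to 1 and 0 to 7852 in the 4 comparisons, the 10 genes from 0 to 8 and pathway genes from 0 to 74 in HBSS against cell media, with both highest without cell media replicate 3, and from 0 to 0 in the others.

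Signs of small differences turned in some settings. In 20 µM against HBSS, removing the length trend gave 0.0082 for Hspa5, 0.014 for Pdia6 and 0.0079 for Xbp1 on 12 and on 10 libraries. Pdia4 was −0.0058 with quantile normalization, −0.0084 with it on 10 libraries and −0.051 with library weights, with which Sdf2l1 was −0.045. Leaving out a library there gave ranges of −0.087 to 0.048 for Hspa5, −0.13 to 0.0063 for Hsp90b1, −0.068 to 0.071 for Pdia4, −0.090 to 0.061 for Pdia6, −0.19 to 0.062 for Calr, −0.030 to 0.011 for Xbp1, −0.066 to 0.16 for Sdf2l1 and −0.16 to 0.077 for Creld2. Hsp90b1 with quantile normalization was −0.053 and, on 10 libraries, −0.051 in 100 µM against HBSS, where leaving out a library gave −0.014 to 0.12, and −0.0044 and −0.0048 in 100 µM against 20 µM. Herpud1 in 100 µM against 20 µM was 0.024 with median-of-ratios scaling and −0.067 to 0.026 with a library left out.

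In HBSS against cell media, Xbp1 was 0.058 with quantile normalization, 0.072 on 10 libraries, 0.084 with the block on 10 libraries, 0.029 with the length and 0.093 with the GC trend removed, and 0.056 and 0.057 with length and quantile correction on 10 libraries. Sdf2l1 was 0.41 on 10 libraries, 0.52 with the block on them, 0.067 with the length and 0.057 with the GC trend removed, and 0.41 and 0.39 with length and quantile correction on 10. Dnajb9 was −0.090 after quantile normalization, −0.11 after median-of-ratios scaling, −0.24 on 10 libraries, −0.20 with the block on them, −0.19 with the GC trend removed, and −0.26 and −0.23 with length and quantile correction on 10. Leaving out a library gave −0.067 to 0.051 for Xbp1, −0.42 to 0.093 for Sdf2l1 and −0.11 to 0.15 for Dnajb9. The causes were not tested.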
